A study of Mus musculus with 6 samples.

Results

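The genes described here are the DNA replication genes: 43 named mouse genes of origin licensing, the replication fork and the supply of DNA building blocks, from Mcm2 to Tk1. They were named from their textbook roles and not by a rule on their values, though earlier results of these data were known. A member was measured when an array feature was annotated with that gene alone, and 41 of the 43 were, out of 30702 genes measured in this way. Mcm7 shares its feature with the microRNA genes Mir25 and Mir93, and Orc5 shares its feature with the gene model Gm15421, so neither was counted among the members. No member had a second feature, so each value rests on 1 feature.

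RNA came from mouse embryonic stem cells of a line labelled iRunx, grown into embryoid bodies, which are aggregates in which early embryonic tissues form. At day 4 of differentiation the bodies were taken apart, and cells carrying Flk1 (the receptor encoded by Kdr) but not PDGFRα (spelled PDFGRα in the labels) were isolated by flow cytometry. The 3 HOXB4 samples expressed the homeodomain protein HOXB4 from a retrovirus with the red fluorescent marker tdTomato, and the 3 control samples were iRunx cells of the same day and sort without HOXB4. Each sample was hybridised to 1 Affymetrix array, and the series text calls the replicates of each group separate experiments. All 6 samples thus share the iRunx genotype, the time point and the sort. The labels do not state whether the controls carried an empty vector, whether a Runx gene was induced or which species the introduced HOXB4 came from. The comparison asks how these cells differ in gene expression when HOXB4 is present.

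Replication is prepared in 2 steps. Before S phase the origin recognition complex (ORC), CDC6 and CDT1 load the MCM2 to MCM7 helicase onto DNA, and in S phase CDC45 and the GINS complex join the helicase and start it. Primase then starts the new strands, and polymerases copy the DNA, some of them held to it by the clamp PCNA. Ribonucleotide reductase and thymidylate synthase supply nucleotides. Many of these replication genes are transcribed under E2F factors as cells enter the cycle. Early mesoderm and its blood and endothelial derivatives divide rapidly, so their transcripts are usually abundant in such cells.

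Values are log2 expression summaries, and every difference is HOXB4 minus control on that scale, with its moderated standard error (SE) from limma. Array medians over genes lay between 5.10 and 5.22 and those of 23 background features between 3.06 and 3.15. Over all genes, 0 of 30702 had a limma adjusted p under 0.05 (0%), and 2513 had an unadjusted p under 0.05. The feature listed for Hoxb4, shared with Mir10a, ranged from 4.24 to 4.96 over the 6 arrays and does not check the labels. Kdr, which encodes the sorted receptor, was between 13.68 and 14.33. The p-values measure the spread between these few separate experiments.

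The DNA replication genes lay lower in HOXB4 cells as a group of small differences, none of which passed the test. Of the 41 members, 35 had a difference below 0 and 6 above 0, against 60% below 0 among all genes. In 21 members, or 51.2%, every HOXB4 array lay below every control array, against 10.2% of all genes, and in 0 members did every HOXB4 array lie above every control, against 3.24%. The median difference of the members was -0.21, against -0.04 over all genes, and the members ranged from -0.59 for Cdc6 to 0.15 for Pole. No member was called by limma, with adjusted p from 0.605 to 0.978, while 15 had an unadjusted p under 0.05, all of them lower in HOXB4 cells, against 5.95% of all genes in that direction and 2.23% in the other; an ordinary linear model without moderation also called 0 members, with 16 unadjusted.

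**Figure D1:**
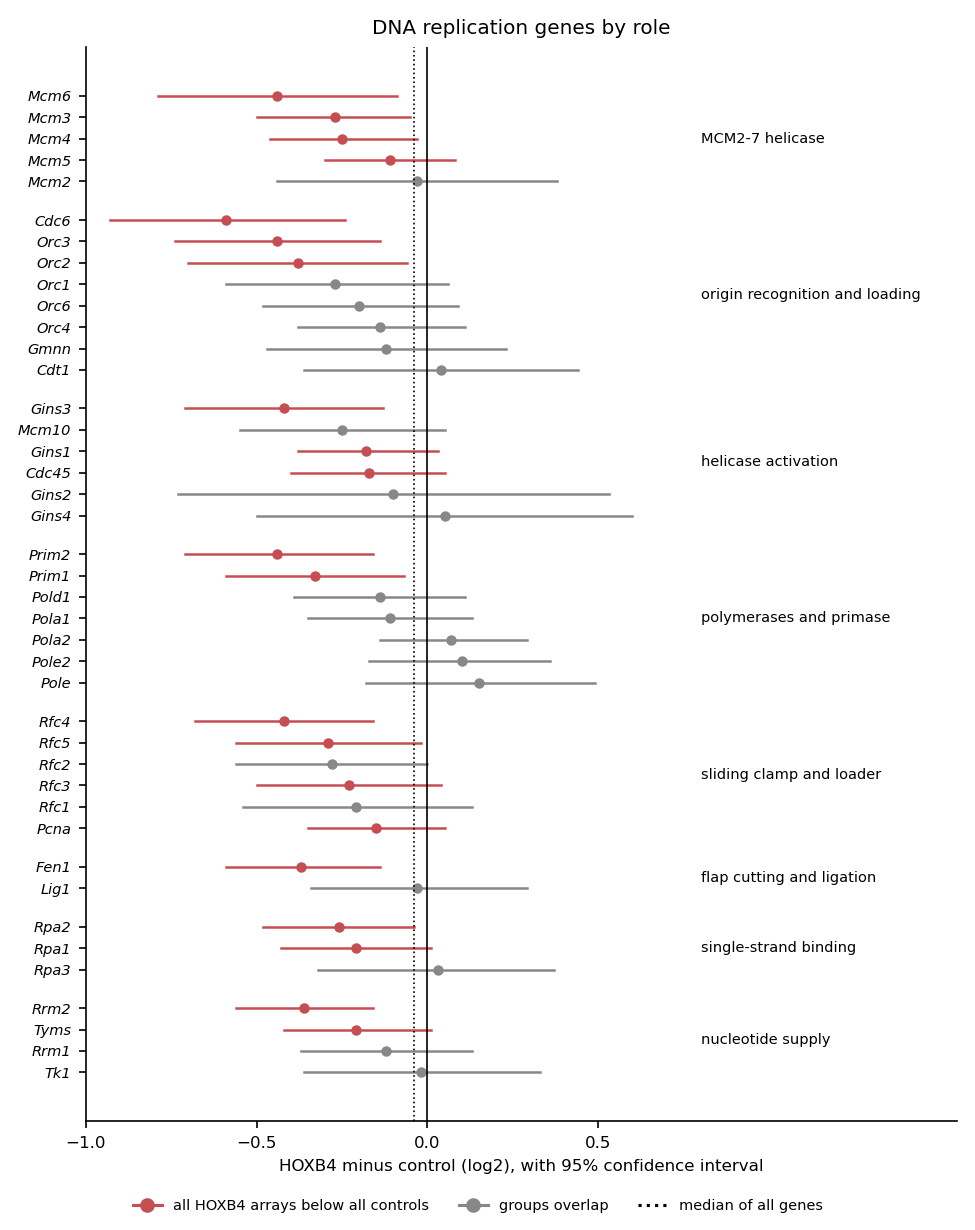
Log2 difference, HOXB4 minus control, of the 41 measured members ordered by role, with 95% confidence intervals from limma over 3 arrays a group, in red where the groups did not overlap and grey where they did; the dotted line is the median of all genes. The differences run from -0.59 to 0.15, and 35 lie below 0.

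The members are well expressed genes, with mean levels of 7.46 to 14.91, all far above the background features. Among the 8099 genes within that range of level, 15% had no overlap in the lower direction and 59.1% lay below 0, with a median difference of -0.06. The separation between groups was narrow. In the 21 members without overlap, the gap between the lowest control and the highest HOXB4 array ran from 0.004 in Rfc3 to 0.251 in Rrm2, and it was over 0.1 in 8. The median SD was 0.12 in controls and 0.10 in HOXB4 arrays (n = 3 each). After cyclic loess scaling, which aligns the arrays to each other along the level, 10 members kept no overlap in the lower direction against 6.22% of all genes, Pola2 alone had none in the higher direction, and 31 members lay below 0 against 48.3% of all genes. The members' median was then -0.10 against 0.01. Mcm2, Gins2, Lig1 and Tk1 were the members whose sign turned. The 10 without overlap were all among the 21: Orc3, Cdc6, Gins3, Prim1, Prim2, Rfc4, Rfc5, Fen1, Rpa2 and Rrm2. In sorted bulk samples, fewer cells in S phase and less of these RNAs per cell cannot be told apart.

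**Figure D2:**
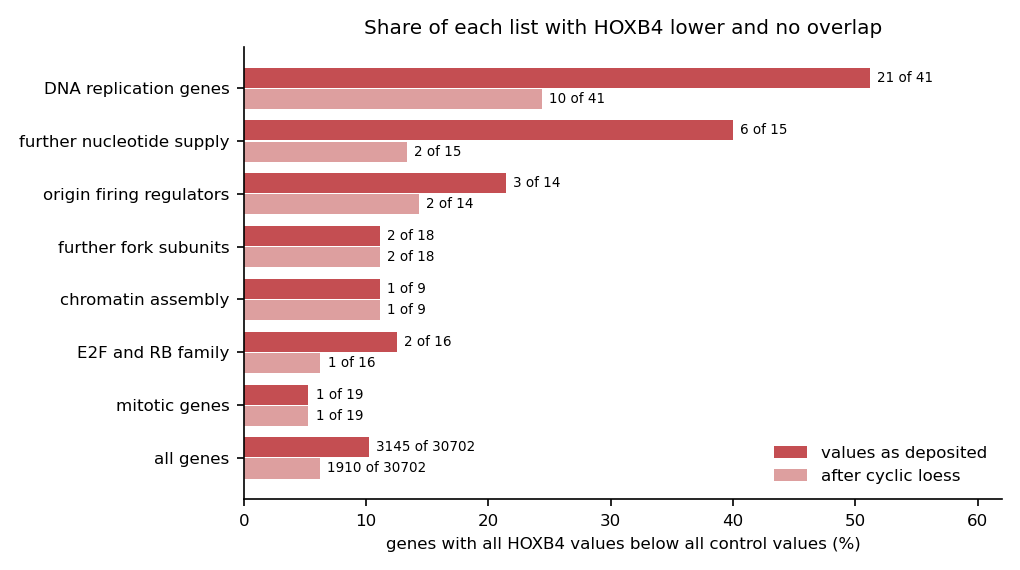
Percent of genes in each list whose 3 HOXB4 arrays all lay below the 3 controls, for the members, other cell cycle lists and all genes, as deposited (dark bars) and after cyclic loess (light bars), each labelled with its count; as deposited the members stand at 51.2%, against 10.2% of all genes.

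The MCM helicase unwinds DNA ahead of the fork, and all 5 measured subunits had a difference below 0 as deposited, with a median of -0.25, and 4 had no overlap between groups. Mcm6, which with Mcm4 belongs to the catalytic core of the ring, was at 14.06, 13.89 and 13.93 in the controls, given here and below in the order of replicates 1 to 3, against 13.37, 13.83 and 13.36 in the HOXB4 arrays. HOXB4 1 and HOXB4 3 lay well under the controls and HOXB4 2 just under them, and the difference was -0.44 (SE 0.15), or 1.36-fold lower. Mcm3, another subunit, was at 13.46, 13.25 and 13.37 in controls and 13.09, 13.16 and 13.00 in HOXB4 cells, a difference of -0.27 (SE 0.10). Its groups were 0.09 apart. Mcm4 was at 13.93, 13.82 and 13.93 in controls against 13.59, 13.76 and 13.60, a difference of -0.25 (SE 0.09). Again HOXB4 2 was the HOXB4 array nearest to the controls. Mcm5, which forms the gate through which the ring opens with Mcm2, was at 14.26, 14.28 and 14.35 against 14.21, 14.17 and 14.19, a difference of only -0.11 (SE 0.08, limma adjusted p = 0.706). The adjusted p of Mcm3, Mcm4 and Mcm6 was 0.605. Mcm2 overlapped between groups, with -0.03 (95% interval -0.44 to 0.38), because control 1 at 13.32 was its lowest array and control 2 at 13.94 its highest. After cyclic loess 0 of the 5 kept groups without overlap, and Mcm2 turned to 0.07, while Mcm6 stayed at -0.33.

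Promoters of the members were searched for E2F letters, because many replication genes are transcribed under E2F factors. RefSeq windows of assembly GRCm38.p6, from 250 bases before to 50 after each gene's start, were listed for 35 of the 43 genes. The letters searched on both strands were TTTCCCGC, TTTCGCGC, TTTGCCGC and TTTGGCGC. At least 1 of them stood in the windows of 14 of 35 members (40%), against 704 of 27025 genes (2.6%). The list was drawn up by role, so this share does not rest on the differences between HOXB4 and control. The part of E2F factors in those differences was not tested. The share was 38.9% (7 of 18) among members without overlap and 40% (6 of 15) among overlapping members, so the letters did not separate them. CCAAT, searched on both strands as a common promoter element, was in 22 of 35 members (62.9%) against 41.1% of all genes. The 160 bases before the start of Mcm6 and Mcm5 are shown because both hold the same 12-base stretch, in which E2F letters of either strand overlap; capitals mark the E2F letters, read 5′ to 3′ on the strand of the gene.
Mcm6 (GRCm38.p6, chr1:128359706-128359865, minus strand): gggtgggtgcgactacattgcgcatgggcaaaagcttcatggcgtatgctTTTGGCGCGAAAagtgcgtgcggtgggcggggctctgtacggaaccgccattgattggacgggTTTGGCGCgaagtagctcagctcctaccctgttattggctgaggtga
Mcm5 (GRCm38.p6, chr8:75109349-75109508, plus strand): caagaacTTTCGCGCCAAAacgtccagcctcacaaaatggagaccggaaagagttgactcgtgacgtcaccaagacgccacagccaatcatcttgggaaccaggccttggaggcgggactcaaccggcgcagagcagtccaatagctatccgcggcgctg
The stretch TTTGGCGCGAAA begins 110 bases before the start of Mcm6, and its reverse complement TTTCGCGCCAAA begins 153 bases before the start of Mcm5. Of 27025 genes, 4 held it (0.0148%), and 2 of those were these members. Mcm6 holds a further match 47 bases before its start. With the same stretch in both windows, Mcm6 differed by -0.44 and Mcm5 by -0.11 in expression. A match is a description of letters and says nothing about binding.

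Among genes that recognise origins and load the helicase, 7 of 8 lay below 0, with 3 of the 8 without overlap and a median of -0.23. Without HOXB4 2, 7 of the 8 had no overlap, and without control 2, 6, against 21.4% and 17% of all genes then. Cdc6, the ATPase that recruits the MCM ring to ORC, had the lowest difference of all members. It was at 10.99, 10.96 and 10.59 in controls and at 10.13, 10.45 and 10.21 in HOXB4 cells. All HOXB4 arrays lay below all controls, with control 3 the lowest control and HOXB4 2 the highest HOXB4 array, and the difference was -0.59 (SE 0.14, 95% interval -0.93 to -0.24), or 1.5-fold lower, with an unadjusted p of 0.00524 and a limma adjusted p of 0.605. Leaving out any 1 array gave -0.71 to -0.51. Orc3, an ORC subunit, was at 11.14, 10.86 and 10.90 against 10.45, 10.72 and 10.41, a difference of -0.44 (SE 0.13). Orc2, its partner in the complex, was at 12.82, 12.55 and 12.35 against 12.11, 12.30 and 12.18, a difference of -0.38 (SE 0.14). In both, control 1 was the highest array, and the adjusted p was 0.605. Orc1, the ATPase subunit of ORC, overlapped between groups at -0.27 (SE 0.14), with HOXB4 2 at 8.64 above control 2 at 8.53. Orc4 and Orc6 differed by -0.14 (SE 0.10) and -0.20 (SE 0.12), also with overlap.

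Cdt1 and Gmnn regulate loading from opposite sides, CDT1 as the loader that works with CDC6 and geminin as its inhibitor, and neither separated the groups. Cdt1 was at 9.27, 9.88 and 9.76 in controls and 9.76, 9.60 and 9.67 in HOXB4 cells, a difference of 0.04 (95% interval -0.36 to 0.44). Gmnn was at 9.18, 9.34 and 9.45 against 9.03, 9.49 and 9.10, a difference of -0.12 (95% interval -0.47 to 0.23). For Cdt1 the HOXB4 arrays all lay inside the spread of the controls. The windows of Cdc6 and Orc1 are shown as a pair of loading genes with E2F letters, 1 without overlap and 1 with.
Cdc6 (GRCm38.p6, chr11:98907991-98908150, plus strand): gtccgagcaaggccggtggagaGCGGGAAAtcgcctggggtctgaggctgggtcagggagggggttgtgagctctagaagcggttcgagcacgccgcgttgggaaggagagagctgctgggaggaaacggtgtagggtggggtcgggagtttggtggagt
Orc1 (GRCm38.p6, chr4:108579294-108579453, plus strand): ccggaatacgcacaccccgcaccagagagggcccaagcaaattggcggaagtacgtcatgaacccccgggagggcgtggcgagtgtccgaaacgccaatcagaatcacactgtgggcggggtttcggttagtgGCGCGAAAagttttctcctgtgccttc
The match begins 138 bases before the start in Cdc6, as the reverse complement of TTTCCCGC, and 27 bases before it in Orc1, as the reverse complement of TTTCGCGC.

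**Figure D3:**
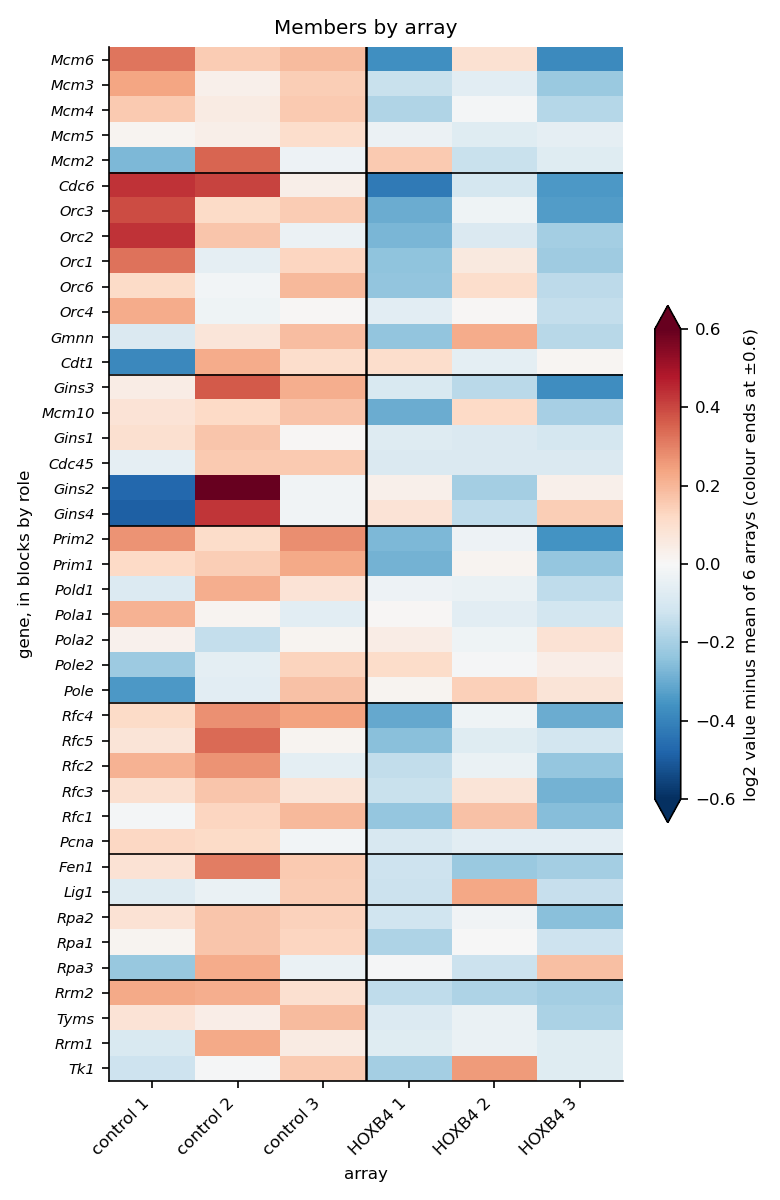
Each member's log2 value minus its mean over the 6 arrays, with members in rows by role and arrays in columns; members tend to lie above their mean in the 3 controls and below it in HOXB4 1 and HOXB4 3, with HOXB4 2 the highest HOXB4 array in 25 of 41.

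Of the 6 genes that activate the helicase, 5 lay below 0 and 3 had no overlap, among them Gins1 and Gins3 but not Gins2 and Gins4, with a median of -0.17. Gins3 was at 8.36, 8.68 and 8.53 in controls and 8.22, 8.15 and 7.94 in HOXB4 cells, a difference of -0.42 (SE 0.12, limma adjusted p = 0.605), or 1.33-fold lower. Here HOXB4 3 was the lowest array and every HOXB4 array lay under control 1. Gins1 was at 10.28, 10.35 and 10.19 against 10.11, 10.10 and 10.08, a difference of -0.18 (SE 0.08, limma adjusted p = 0.62). Cdc45, which ties GINS to the MCM ring, was at 11.25, 11.46 and 11.46 against 11.22 in each HOXB4 array, a difference of -0.17 (SE 0.09, limma adjusted p = 0.643). Both had HOXB4 arrays within 0.03 of each other and groups less than 0.1 apart, and both overlapped after cyclic loess. Gins2 and Gins4, singled out after their values were seen, had the widest spread over arrays of all members. Gins2 was at 10.42, 11.53 and 10.87 in controls and 10.92, 10.69 and 10.92 in HOXB4 cells, a difference of -0.10 (95% interval -0.73 to 0.53). It moved from -0.35 without control 1 to 0.20 without control 2. Gins4 was at 11.64, 12.56 and 12.11 against 12.21, 11.98 and 12.28, a difference of 0.05 (95% interval -0.50 to 0.60) that was -0.18 without control 1 and 0.28 without control 2. In both, the controls spanned the whole range of the 6 arrays. Mcm10, which stabilises the started helicase, differed by -0.25 (SE 0.13), with HOXB4 2 at 9.93 level with control 2 at 9.93, and by -0.38 without HOXB4 2. The window of Gins3 is shown because its E2F match, the reverse complement of TTTCCCGC 41 bases before the start, belongs to a member without overlap.
Gins3 (GRCm38.p6, chr8:95633399-95633558, plus strand): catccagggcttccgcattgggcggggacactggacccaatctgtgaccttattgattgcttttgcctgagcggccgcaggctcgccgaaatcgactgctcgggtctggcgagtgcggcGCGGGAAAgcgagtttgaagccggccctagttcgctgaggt

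Of 7 polymerase and primase genes, 4 lay below 0 and 3 above, with a median of -0.11 that was -0.03 without control 1 and -0.02 after cyclic loess. Primase makes the short RNA from which each new strand starts, and both of its subunits lay lower without overlap. Prim2, the large subunit, was at 12.81, 12.65 and 12.82 in controls and 12.27, 12.51 and 12.18 in HOXB4 cells, a difference of -0.44 (SE 0.12, unadjusted p = 0.0073 by limma), or 1.35-fold lower. Prim1, the catalytic subunit, was at 10.85, 10.88 and 10.96 against 10.45, 10.75 and 10.50, a difference of -0.33 (SE 0.11). The limma adjusted p of both was 0.605, and both kept no overlap after cyclic loess. The other 5 genes of the group all overlapped. Pola1 and Pola2, which form polymerase alpha with primase, differed by -0.11 (95% interval -0.35 to 0.13) and 0.07 (95% interval -0.14 to 0.29). Pold1, the catalytic subunit of the lagging strand polymerase delta, differed by -0.14 (95% interval -0.39 to 0.11). Pole and Pole2 of the leading strand polymerase epsilon differed by 0.15 (95% interval -0.18 to 0.49) and 0.10 (95% interval -0.17 to 0.36). Pole, Pole2 and Pola2 were above 0 with every 1 array left out. The intervals allow differences of either sign and the difference between primase and polymerase genes was not tested. The window of Pola1 is shown beside those above as that of an overlapping member with an E2F match, the reverse complement of TTTGGCGC, 138 bases before the start.
Pola1 (GRCm38.p6, chrX:93632156-93632315, minus strand): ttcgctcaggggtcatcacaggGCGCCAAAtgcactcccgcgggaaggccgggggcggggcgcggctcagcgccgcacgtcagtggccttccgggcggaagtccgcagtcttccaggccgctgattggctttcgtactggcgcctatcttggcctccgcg

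The clamp and its loader lay below 0 in 6 of 6 genes, 4 of them without overlap, with a median of -0.25. Rfc4, a small subunit of the loader that opens the PCNA ring, was at 12.47, 12.63 and 12.60 in controls and 12.05, 12.33 and 12.06 in HOXB4 cells, a difference of -0.42 (SE 0.11, unadjusted p = 0.00694 by limma), or 1.34-fold lower. HOXB4 2 was again nearest to the controls. Rfc5, another small subunit, was at 9.52, 9.78 and 9.46 against 9.19, 9.37 and 9.33, a difference of -0.29 (SE 0.11) that was -0.19 without control 2. Rfc3 was at 8.33, 8.40 and 8.31 against 8.10, 8.31 and 7.95, a difference of -0.23 (SE 0.11), and its groups were parted by 0.004 only. The adjusted p was 0.605 for Rfc4 and Rfc5 and 0.625 for Rfc3. Pcna, the clamp itself, was at 15.04, 15.03 and 14.90 against 14.82, 14.85 and 14.85, a difference of -0.15 (SE 0.08, limma adjusted p = 0.647) that was -0.04 after cyclic loess. Rfc2 and Rfc1, further loader subunits, overlapped at -0.28 (SE 0.12) and -0.21 (SE 0.14). All 6 stayed below 0 after cyclic loess, with a median of -0.18.

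**Figure D4:**
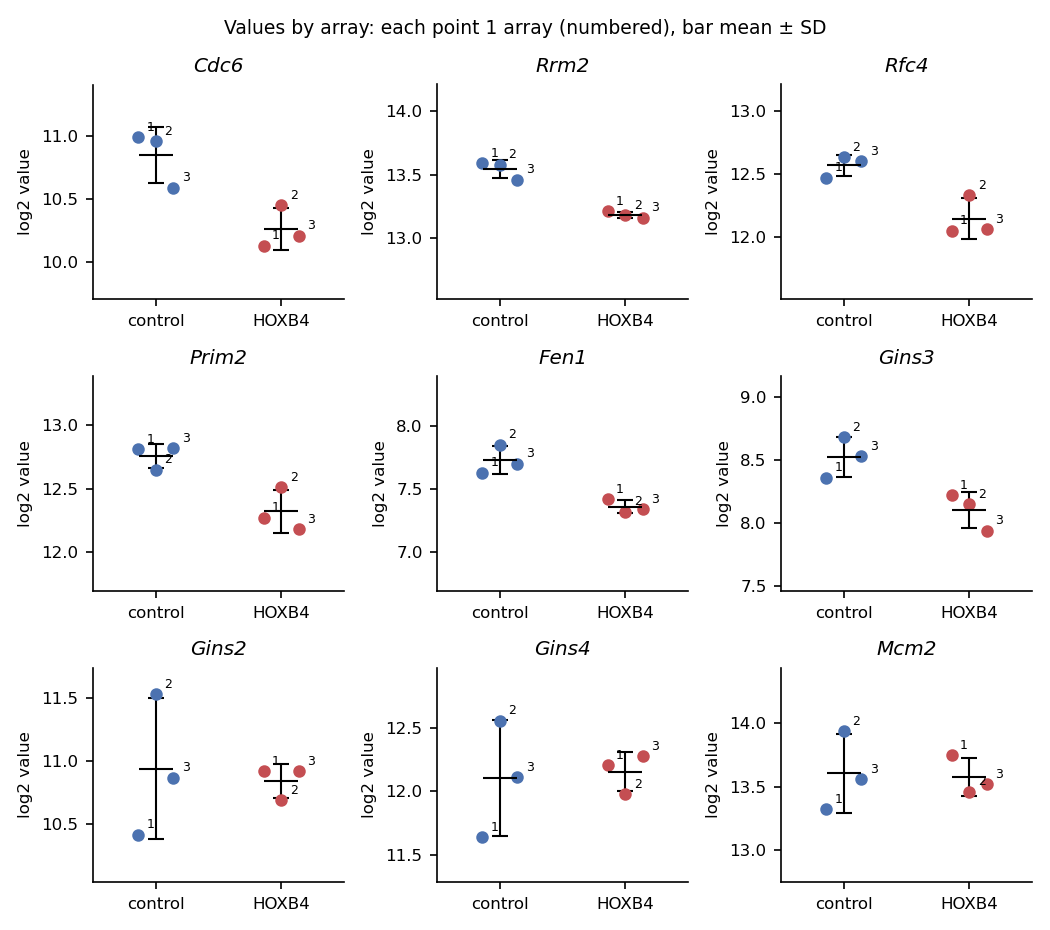
Log2 value in each array, numbered by replicate, with bars at the group mean ± SD (n = 3 each), for 6 members without overlap (Cdc6, Rrm2, Rfc4, Prim2, Fen1, Gins3) and 3 with overlap (Gins2, Gins4, Mcm2); in the latter control 1 is the lowest array and control 2 the highest.

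Of the pair that finishes the lagging strand, 1 had no overlap and 1 overlapped widely. Fen1, the nuclease that cuts off the displaced flap, was at 7.63, 7.85 and 7.70 in controls and 7.42, 7.32 and 7.34 in HOXB4 cells, a difference of -0.37 (SE 0.09, unadjusted p = 0.00631 by limma), or 1.29-fold lower. Its groups stood 0.21 apart, the widest gap but that of Rrm2. Lig1, the ligase that seals the nick, was at 11.42, 11.46 and 11.65 against 11.37, 11.73 and 11.36, a difference of -0.03 (95% interval -0.34 to 0.29) that turned to 0.08 after cyclic loess. HOXB4 2 was its highest array and the other HOXB4 arrays its lowest.

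Replication protein A covers single-stranded DNA at the fork, and 2 of its 3 subunits lay lower without overlap. Rpa2 was at 8.99, 9.07 and 9.04 in controls and 8.78, 8.88 and 8.65 in HOXB4 cells, a difference of -0.26 (SE 0.09). Rpa1, the large subunit, was at 10.08, 10.23 and 10.19 against 9.88, 10.06 and 9.94, a difference of -0.21 (SE 0.09). Control 1 and HOXB4 2 of Rpa1 were only 0.02 apart. Rpa3, the small subunit, overlapped at 0.03 (95% interval -0.32 to 0.37).

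In nucleotide supply, Rrm2 had the smallest unadjusted p and the widest gap of all members. It encodes the small, cycle-regulated subunit of ribonucleotide reductase, which turns ribonucleotides into deoxyribonucleotides. It was at 13.59, 13.58 and 13.46 in controls and 13.21, 13.18 and 13.16 in HOXB4 cells. The HOXB4 arrays lay within 0.05 of each other and 0.25 under the lowest control, and the difference was -0.36 (SE 0.08, 95% interval -0.56 to -0.16), or 1.28-fold lower, with an unadjusted p of 0.00392 and a limma adjusted p of 0.605. Leaving out any 1 array gave -0.40 to -0.34, and cyclic loess gave -0.25. Tyms, which makes thymidylate, was at 12.18, 12.14 and 12.29 against 12.02, 12.06 and 11.91, a difference of -0.21 (SE 0.09) with groups 0.077 apart. Rrm1, the large reductase subunit, overlapped at -0.12 (95% interval -0.37 to 0.13), with the HOXB4 arrays at 14.43, 14.46 and 14.43 and control 1 at 14.41. Tk1, the salvage kinase for thymidine, overlapped at -0.02 (95% interval -0.36 to 0.33), with HOXB4 2 at 8.73 its highest array.

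The arrays within a group did not lie evenly. A control was the highest array in 37 of 41 members, with control 2 highest in 17, and HOXB4 1 or HOXB4 3 was the lowest in 29. HOXB4 2 was the highest HOXB4 array in 25 members, and in 14 of the 21 without overlap. Taking each member relative to its own mean over the 6 arrays, the members' median was 0.08, 0.15 and 0.13 in the controls, against -0.13, -0.04 and -0.16 in the HOXB4 arrays. Control 1 was the lowest array in 8 members, Mcm2, Cdt1, Gins2, Gins4, Pole, Pole2, Rpa3 and Rrm1, and in 6 of these control 2 was the highest. This pattern was noticed after the values were seen.

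Markers of cell types differed between the same arrays, in ways that partly followed the groups. Of 10 haematoendothelial genes, the cells the sort selects, 9 lay above 0 with a median of 0.59, and the log2 of their summed linear level was 14.73 to 15.57 in controls and 14.52 to 16.27 in HOXB4 arrays. Without HOXB4 1, 5 of the 10 lay above 0 and the median was -0.04; leaving out control 1, 2 or 3 gave 0.28, 1.06 or 0.32, and leaving out HOXB4 2 gave 1.24. The gene below 0 was Etv2, an early regulator of this lineage, at -1.53 (SE 0.60), beside Fli1, a later one, at 1.15 (SE 0.72). All 7 cardiac mesoderm genes lay below 0 with a median of -1.17, and their summed level was 13.30 to 14.19 in controls against 10.22, 13.20 and 10.14 in HOXB4 1 to 3. HOXB4 2 was the highest HOXB4 array for that list, as it was for 25 of the members. Tbx20 and Hand2, both heart transcription factors, differed by -1.89 (SE 0.48) and -1.21 (SE 0.31). The summed cardiac level followed mainly Hand1 and Tbx20, the brightest genes of that list. Hand1 was at 13.79, 12.82 and 13.46 in controls against 8.98, 12.83 and 8.61, a difference of -3.22 (SE 1.06) with overlap. Nkx2-5 and Mesp1 differed by only -0.12 (SE 0.09) and -0.33 (SE 0.21). All 5 pluripotency genes lay above 0 with a median of 0.53 and summed levels of 9.32 to 9.97 against 9.50 to 10.76, and 4 of 6 genes of PDGFRα-positive and paraxial mesoderm lay below 0, with 8.0 to 8.33 against 7.99 to 8.09. Of these, Zfp42 and Esrrb of pluripotent cells differed by 0.69 (SE 0.23) and 0.43 (SE 0.21), and Twist1 and Tcf15 of mesoderm by -0.73 (SE 0.22) and -0.31 (SE 0.17). Foxc1 and Foxc2 of the mesoderm list went the other way, at 0.23 (SE 0.25) and 0.09 (SE 0.15). Of the 28 markers, 0 were at or under the background medians in every array. Several were dim all the same, under the array medians over genes. Among these were Meox1 at 3.63 to 4.02, Foxc2 at 4.32 to 4.73 and Esrrb at 4.12 to 5.04. Twist1 was dim as well, at 6.23, 5.51 and 5.42 in controls and 4.85, 5.13 and 4.99 in HOXB4 arrays. The part of these cell mixtures in the members' differences was not tested. Without HOXB4 2, the members' median was -0.26, and 46 of 30702 genes were called by limma, of which 0 were members.

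**Figure D5:**
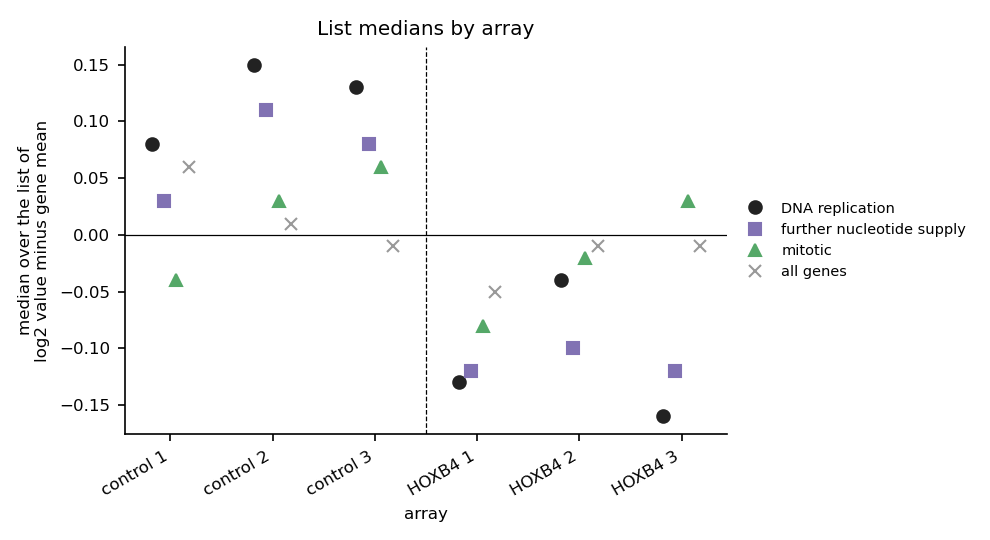
Median over each list of the log2 value minus the gene's mean over the 6 arrays, by array, for the members, further nucleotide supply enzymes, mitotic genes and all genes; the members' medians are 0.08 to 0.15 in controls and -0.16 to -0.04 in HOXB4 arrays, and those of mitotic genes overlap.

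Other genes of the cell cycle were read from lists drawn up from pathway knowledge, also with earlier results known. In none of the lists was a gene called by limma. Enzymes of nucleotide metabolism outside the member list resembled the members in their counts as deposited, with 12 of 15 below 0 and a median of -0.24. Of these 15, 6 had no overlap in the lower direction (40.0%, against 10.2% of all genes), and 5 had a limma unadjusted p under 0.05. After cyclic loess 2 of the 15 kept no overlap in that direction, against 6.22% of all genes. Among the 6 was Samhd1, not a synthesis enzyme, at -0.22 (SE 0.11). Umps, which makes UMP, was at 12.82, 12.53 and 12.25 in controls and 11.72, 12.22 and 11.74 in HOXB4 cells. Its difference was -0.64 (SE 0.20). Ctps, which makes CTP, was at 12.43, 12.46 and 12.54 against 12.07, 12.25 and 12.13, a difference of -0.33 (SE 0.09). HOXB4 2 was the highest HOXB4 array in both. Of further fork subunits, 14 of 18 lay below 0, with a median of -0.09. In the lower direction 2 had no overlap (11.1%, near the 10.2% of all genes), and in the higher direction 1, Timeless (5.56%, against 3.24%). Pold2, the accessory subunit of polymerase delta, had a control mean of 12.01 ± 0.07 and a HOXB4 mean of 11.57 ± 0.10 (± SD, n = 3 each), a difference of -0.44 (SE 0.09), beside -0.14 (SE 0.11) for its catalytic partner Pold1, and Pole3 of polymerase epsilon differed by -0.29 (SE 0.09). Of 14 regulators of licensing and origin firing, 10 lay below 0, with a median of -0.16. In the lower direction 3 had no overlap (21.4%, against 10.2% of all genes). After cyclic loess 2 had none in the lower direction and 2 in the higher, against 6.22% and 6.04% of all genes. Their median was then -0.07. Mcm8, a relative of the MCM ring, differed by -0.45 (SE 0.13), and Ccne2, a cyclin of S phase entry, by -0.64 (SE 0.20) with overlap.

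E2F and RB family genes, chromatin assembly genes and mitotic genes stood near the values of all genes. Of 16 E2F and RB genes, 10 lay below 0 and 2 had no overlap in the lower direction, with a median of -0.05 that turned to 0.01 without HOXB4 3 and to 0.02 after cyclic loess. These were E2f3, an activator, at -0.54 (SE 0.16), and E2f5, a repressor, at -0.47 (SE 0.19) and -0.28 without HOXB4 1. The value of E2f3 rests on the brighter of 2 features naming it, one identified as unmapped. The other feature is not given here. Of 9 chromatin assembly genes, 5 lay below 0 and 1 had no overlap, with a median of -0.02 that turned to 0.09 after cyclic loess; Chaf1a of the histone chaperone CAF-1 differed by -0.18 (SE 0.09) and Uhrf1, which maintains DNA methylation, by -0.16 (SE 0.10). Of 19 mitotic genes, 12 lay below 0 with a median of -0.03, and 1 in each direction had no overlap. Birc5, of the chromosomal passenger complex, was at 7.53, 7.56 and 7.53 in controls against 7.30, 7.32 and 7.25, a difference of -0.25 (SE 0.08). Cdc20, which activates the anaphase ligase, was at 11.25, 11.39 and 11.31 against 11.49, 11.46 and 11.66, a difference of 0.22 (SE 0.10). After cyclic loess 3 mitotic genes lay below 0 and 16 above, with a median of 0.06, beside -0.10 for the members. Whether the members differ from the mitotic genes was not tested. E2F letters stood in 1 of 17 mitotic promoter windows (5.88%), and CCAAT in 13 of 17 (76.5%).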

How the data were processed

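The 6 samples were grouped by their titles. The authors deposited log2 values, computed with Affymetrix Expression Console and RMA per the submitters' processing notes, with versions and settings not given in the sources used here. RMA equalises the arrays, so a shift shared by most genes would be partly removed. Per the labels' protocols, 100 ng of RNA was labelled. Of 65956 features that were not control features, 31258 named 1 gene in the platform annotation, updated through a RefSeq gene table of GRCm38.p6; the brightest stood for each of 30702 genes.

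HOXB4 minus control was fitted over all genes by lmFit and eBayes of limma (version 3.58.1, under R 4.3.3) as a two-sided test at a Benjamini-Hochberg adjusted p under 0.05, after a test on simulated data. No overlap is a count without a test. The members, lists and rules were chosen with earlier results of these data known. Values in every array were given for members without overlap and the 2 with the smallest unadjusted p of each role group; of each other list, the 2 genes with the smallest p were named, and genes named beyond this were chosen after their values were seen. Alternatives were a replicate block, other variance models, array weights, a filter on dim features, 2 scalings, other feature rules and each array left out; leaving out control 2 with HOXB4 2 was added after the data were seen. The number of arrays limits the precision. Tables, promoter searches and plots were made in Python 3.11.15 with matplotlib 3.10.9, numpy 2.4.6 and pandas 2.3.3.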

Additional observations from a re-analysis of the deposited data

How the results depend on the processing

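The members called stayed at 0 in every fit run, and 31 to 38 of 41 lay below 0. Members without overlap in the lower direction were 21 to 29 when 1 array was left out, against 13.2% to 21.4% of all genes then (21.4% without HOXB4 2), 29 without control 2 and HOXB4 2, against 28.7%, and 10 after cyclic loess, against 6.22%. In the higher direction there were 0 to 2 with 1 array left out, against 5.07% to 10.5%, 1 after cyclic loess, against 6.04%, and 4 without control 2 and HOXB4 2, against 16.4%. The members' median ran from -0.26 to -0.17 with 1 array left out, and was -0.10 after cyclic loess and -0.26 without control 2 and HOXB4 2. Of 30702 genes, 0 to 46 were called with 1 array left out, the 46 being without HOXB4 2. Without control 2 and HOXB4 2, 817 of them were called, and the cause was not tested. In either fit 0 members were called, which says little about 41 members when so few genes were called. The difference of Lig1 turned to 0.08 after cyclic loess, 0.03 without HOXB4 1, 0.04 without HOXB4 3 and 0.05 without control 3. Of 128 values of role group medians under alternatives, 121 moved by less than the spread between arrays. The other 7, from 5 role groups, moved by more without changing sign. The differences of the 21 members without overlap kept their sign in every alternative. Over all 41 members, 34 kept their sign with any 1 array left out. Mcm2, Cdt1, Gins2 and Gins4 were among those that did not.

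With the replicate number as a block, 0 genes and 0 members were called, with 1294 genes and 9 members at an unadjusted p under 0.05 against 2513 and 15 without it. Deviations of arrays of the same number from their group means correlated at -0.402, -0.594 and -0.347, and no array correlated best with its own number. These correlations cannot show whether samples of the same number came from the same experiment.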

Other observations

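The 2 genes left out of the member counts for a shared feature can be read only together with their partners. The feature of Mcm7, a helicase subunit whose intron holds Mir25 and Mir93, was at 12.77, 12.77 and 12.93 in the controls against 12.42, 12.65 and 12.43 in the HOXB4 arrays, a difference of -0.32 (SE 0.11, limma adjusted p = 0.509 over all 65956 features). Its groups did not overlap, and HOXB4 2 was nearest to the controls, as for Mcm4 and Mcm6. The feature of Orc5, an ORC subunit, shared with Gm15421, was at 10.89, 10.57 and 10.63 against 9.92, 10.54 and 10.05, a difference of -0.52 (SE 0.18, limma adjusted p = 0.508). HOXB4 2 was 0.03 under the lowest control there.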
